A study of Mus musculus with 26 samples.

Results

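The genes described here are 37 genes of the motile cilium: axonemal dyneins, dynein docking and assembly factors, radial spoke and central pair proteins, tektins and other filament proteins, and the transcription factors Foxj1, Rfx2 and Rfx3. They were taken by name from the array, where all 37 were present on 61 probes. They stand among 26650 genes tested. The list was drawn up with the difference between YFP-positive and YFP-negative cells of these same arrays in view, so that difference, and the levels against day 0, are given as description with no test. Tests were kept for the changes over time within a fraction and for genes outside the list. The lists of those other genes were also chosen with earlier results of these data known, so their p-values are not independent of that choice.

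All groups came from Foxl1-Cre; RosaYFP mice, 6 to 10 weeks old, whose Foxl1-expressing cells and the progeny of these cells are marked for good by the yellow fluorescent protein YFP. Agilent 1-colour arrays were hybridised with RNA of liver non-parenchymal cells. The reference group, day 0, held total non-parenchymal cells of chow-fed mice, labelled pre-YFP (2 arrays). The other groups came from mice fed DDC, a liver toxin that provokes a ductular reaction, and were CD45-negative non-parenchymal cells sorted by YFP. There were 3, 3 and 3 YFP-negative arrays and 4, 3 and 2 YFP-positive arrays at days 3, 7 and 14. The day 0 cells were not sorted by YFP or, as far as the labels say, by CD45, so they differ from the DDC groups in sorting as well as in diet. Nothing in the labels says whether replicates came from separate mice, and p-values measure only the spread between these samples. The Foxl1 gene itself is not analysed here.

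A motile cilium is a beating, microtubule-based organelle of airway, oviduct and brain ventricle epithelia. Foxj1 switches on the genes of the beating machinery, and the RFX factors bind X-box motifs in front of ciliary genes. Outer and inner dynein arms drive the beat, docking proteins fix them to the microtubules, and radial spokes and the central pair pattern it. Cholangiocytes, the cells of bile ducts, are known for a single non-motile primary cilium, which shares intraflagellar transport and the transition zone with motile cilia but carries no such beating machinery.

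The RFX X-box was looked for in the 250 bases before the annotated start of each gene (RefSeq, GRCm38.p6). Of the 37 genes 32 were matched, with 36 windows. Foxj1, Rsph1, Nme5, Lrrc6 and Tppp3 were not matched. The motif, GTNNCC and GNNAC with 3 bases of any kind between them, searched on both strands, lay in 6 of the 36 windows (16.7%), against 3.81% of all 32851 windows of that length. The genes were chosen in part as members of the Foxj1 and RFX programme, so this share is not independent of the choice and is given as description. These 6 matches are printed because they carry that difference, in capitals throughout, with the distance of the first base from the start. Hydin's match lies on the opposite strand and is printed as the gene's strand reads.
Ccdc114, 15 bases before the start: GTCTCCCCAGTAAC
Iqcg, 19 bases before the start: GTTGCCATAGCTAC
Tekt1, 15 bases before the start: GTTGCCATAGAGAC
Spag16, 103 bases before the start: GTTGCCGTAGTAAC
Hydin, 21 bases before the start: GTTGCTGTGGCAAC
Tekt4, 160 bases before the start: GTGTCCTGGGAAAC

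Of these, 4 lie within 21 bases of the start. The shorter RFX half-site GTTGCC, also searched on both strands and part of 4 of the 6 matches above, lay in 14 windows of 13 genes (38.9%), against 10.4% of all windows. The forkhead motif TGTTTAC lay in 1 window, that of Ak7 (2.78%, against 3.17% of all windows). The whole windows of Ccdc114, Iqcg and Tekt1 are printed because their X-boxes lie nearest to the start. Other motifs lay further away, up to 200 bases for the half-site of Dnahc7a. Tekt1 has another annotated start, whose window (chr11:72361297-72361546) holds none of the motifs. The windows of Capsl and Dnali1, the matched genes whose signal moved most closely with Foxj1, hold none of the 3 motifs. Iqcg, which holds an X-box, came next and close to Dnali1 (Pearson's r with Foxj1 over 20 arrays 0.825 and 0.828). Capitals mark X-box and half-site matches.
Ccdc114 (chr7:45923965-45924214, plus strand): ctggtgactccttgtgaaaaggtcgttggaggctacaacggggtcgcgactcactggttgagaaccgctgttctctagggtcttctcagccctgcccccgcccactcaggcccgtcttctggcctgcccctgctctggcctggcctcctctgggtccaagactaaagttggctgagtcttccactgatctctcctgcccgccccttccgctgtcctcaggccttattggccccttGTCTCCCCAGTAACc
Iqcg (chr16:33056187-33056436, minus strand): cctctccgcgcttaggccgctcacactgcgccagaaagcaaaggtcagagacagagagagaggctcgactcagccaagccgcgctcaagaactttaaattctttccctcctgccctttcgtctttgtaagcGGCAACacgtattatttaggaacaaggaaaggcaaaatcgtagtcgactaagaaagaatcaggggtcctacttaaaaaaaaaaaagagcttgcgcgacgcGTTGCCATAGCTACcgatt
Tekt1 (chr11:72361883-72362132, minus strand): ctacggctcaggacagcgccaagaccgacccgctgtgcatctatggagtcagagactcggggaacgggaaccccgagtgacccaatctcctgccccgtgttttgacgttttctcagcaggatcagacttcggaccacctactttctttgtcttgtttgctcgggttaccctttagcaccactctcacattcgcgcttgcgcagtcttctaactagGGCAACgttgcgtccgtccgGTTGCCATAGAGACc
Capsl (chr15:9435778-9436027, plus strand): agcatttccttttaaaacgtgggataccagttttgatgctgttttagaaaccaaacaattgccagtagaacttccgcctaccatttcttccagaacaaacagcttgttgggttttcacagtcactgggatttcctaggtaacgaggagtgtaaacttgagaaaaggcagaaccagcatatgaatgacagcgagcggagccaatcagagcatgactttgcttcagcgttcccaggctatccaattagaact
Dnali1 (chr4:125065658-125065907, minus strand): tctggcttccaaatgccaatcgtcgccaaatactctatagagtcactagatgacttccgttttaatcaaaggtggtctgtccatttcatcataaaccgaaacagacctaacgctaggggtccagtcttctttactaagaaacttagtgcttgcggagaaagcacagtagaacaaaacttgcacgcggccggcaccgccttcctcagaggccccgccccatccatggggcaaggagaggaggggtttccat

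Levels are log2 array signals minus the 75th percentile of each array, so 0 marks that percentile, and each gene is compared only with itself. Differences are log2 differences ± standard error (SE) from 1 limma fit over all 7 groups. A spot is called well above background by the scanner software, and 81.0 to 91.2% of the 43379 spots were so on each array. Of the 37 genes 27 were well above background on every array and 35 on at least 10 of the 20. Dydc2 (5 arrays) and Spef2 (9 arrays, none at day 0) were not. Of 17 genes with several probes, 5 had probes of opposite sign between the fractions (Ak7, Dnahc9, Rfx2, Rfx3 and Spag17). Dnahc7a and Spag6 have close copies in the mouse genome whose transcripts the probes may share. RNA was measured in bulk, so that fewer cells of a type and less RNA per cell cannot be told apart.

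YFP-positive cells carried more signal than YFP-negative cells for 34 of the 37 genes over the mean of days 3, 7 and 14, with a median difference of 1.07. The median over all 26650 genes was 0.06, and 53.8% of them were higher in YFP-positive cells. The difference was over 1 on the log2 scale for 20 of the 37 genes, beside 12.2% of all genes. Foxj1 led with 4.16 ± 0.85, a 17.9-fold difference, followed by the inner arm dynein chain Dnali1 (3.28 ± 0.58) and the outer arm heavy chain Dnahc5 (3.04 ± 0.73). At the other end stood Ropn1l, a protein linked to the radial spoke (-0.90 ± 0.55), Armc3 (-0.29 ± 0.33) and Tekt2 (-0.14 ± 0.34). Since the genes were chosen from this difference, its direction is no independent evidence. By day the median was 0.91 at day 3 (33 of 37 higher), 0.59 at day 7 (28 of 37) and 1.49 at day 14 (32 of 37), beside medians of 0.15, 0.00359 and 0.13 over all genes.

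**Figure D1:**
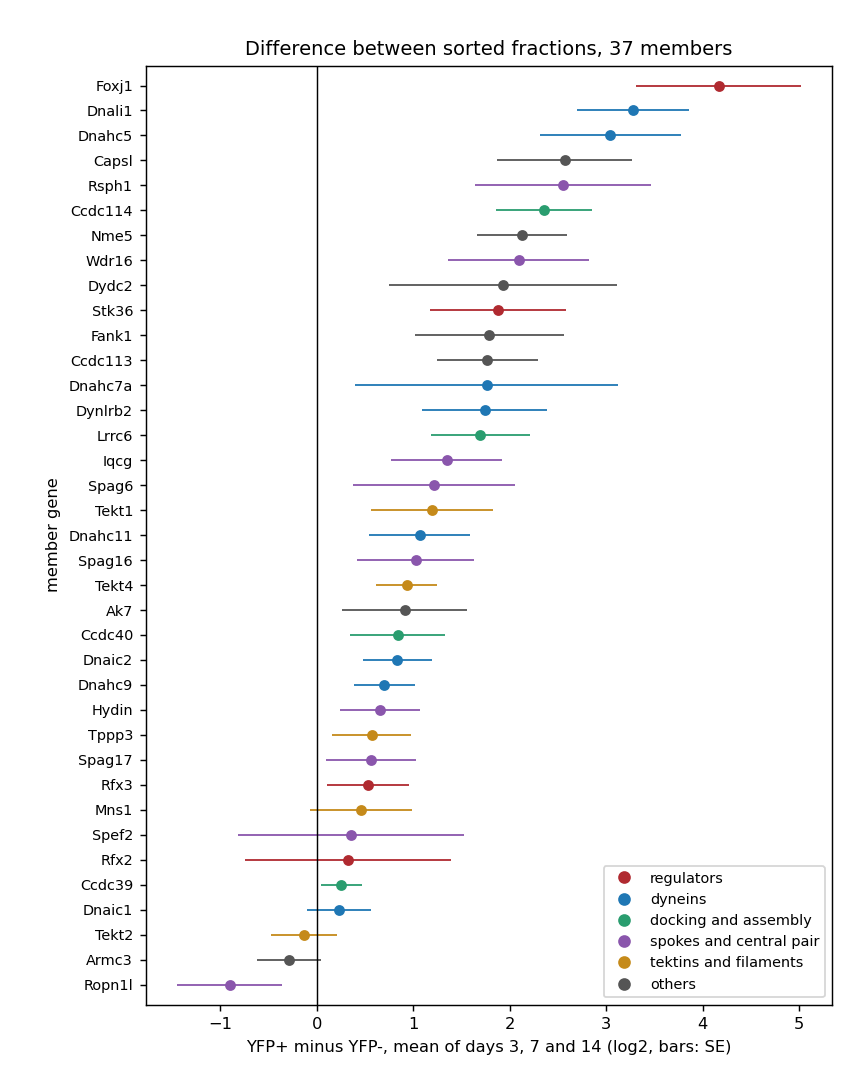
Log2 difference between YFP-positive and YFP-negative cells over the mean of days 3, 7 and 14 for the 37 genes (vertical axis), with bars of 1 SE and colours for roles. Foxj1, Dnali1 and Dnahc5 stand above 3, 34 genes lie above 0, and Tekt2, Armc3 and Ropn1l lie below it.

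These medians depend on the arrays and slides. With slide as a fixed block the median over the mean of days was 0.36 with 24 of 37 genes higher (all genes -0.11), and by day it was 0.31, 0.22 and 0.72. With another background correction, normexp, it was 0.45 over the mean of days with 32 of 37 higher (all genes -0.03) and 0.28 at day 7, and at day 3 the direction was lost, with a median of -0.0087 and 18 of 37 higher (all genes -0.42). The day 7 median fell to 0.31 without YFP-negative replicate 3 and to 0.34 without YFP-positive replicate 1. On the 3 slides that held both fractions at 1 day, each with 1 array against 1 array, 21 of 37 genes were higher in YFP-positive cells on the slide with day 3 (median 0.31, all genes -0.18), and 20 and 19 of 37 on the slides with day 7 (medians 0.07 and 0.03, all genes 0.02 and -0.34). Foxj1 differed by 6.27, 1.86 and 5.15 on these slides, and Dnali1 by 2.61, 1.65 and 2.20. Over 28 alternatives (27 for Dydc2 and Spef2), 22 genes kept their sign and 15 turned in at least 1, of which 12 turned with slide as a fixed block.

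The signal level moved with the difference as well. With all genes split by mean level over the 20 arrays into 5 bins of 5330 genes, the median difference over all genes was 0.28 and 0.37 in the 2 dimmest bins and -0.06 in the brightest. Of the 37 genes 6, 12, 14, 5 and 0 lay in the 5 bins from dim to bright, with medians of 1.85, 1.05, 0.88 and 1.07 in the 4 bins that held any. The part of the signal level in the members' difference was not tested.

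Foxj1 had levels of 0.66 and -0.54 at day 0. In YFP-negative cells it stood at -3.69, 0.84 and -2.41 at day 3, at -0.59, -2.07 and -3.48 at day 7 and at -3.29, -0.75 and 1.13 at day 14. In YFP-positive cells it stood at 2.58, 3.31, -1.43 and 3.97 at day 3, at 3.84, 1.27 and 1.67 at day 7 and at 3.31 and 3.40 at day 14. Of the 9 YFP-positive arrays 8 lay above every YFP-negative array, and the exception was replicate 3 of day 3, which fell inside the YFP-negative range. The differences were 3.86 ± 1.36, 4.31 ± 1.45 and 4.32 ± 1.62 at days 3, 7 and 14. Its probe lies at chr11:116192214-116192273 on the minus strand of mm9, and the annotation of that build was not used here.

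Replicate 3 of YFP-positive day 3 stood apart for the whole list. The mean of the 37 genes, each centred on its own mean over the 20 arrays, was -0.69 on that array and ran from -0.13 to 1.42 on the other 8 YFP-positive arrays. The 9 YFP-negative arrays ran from -1.18 to -0.05 and the day 0 arrays stood at 0.36 and -0.04. With that array left out the median difference was 1.14 (34 of 37 higher), and Foxj1 differed by 4.56. No gene of the 37 had all 9 YFP-positive arrays above all 9 YFP-negative arrays (0.0113% of all genes did), and none had them all below (0.0375%). Without that array Foxj1 alone had them all above (0.199% of all genes), and none had them all below (0.109%).

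**Figure D2:**
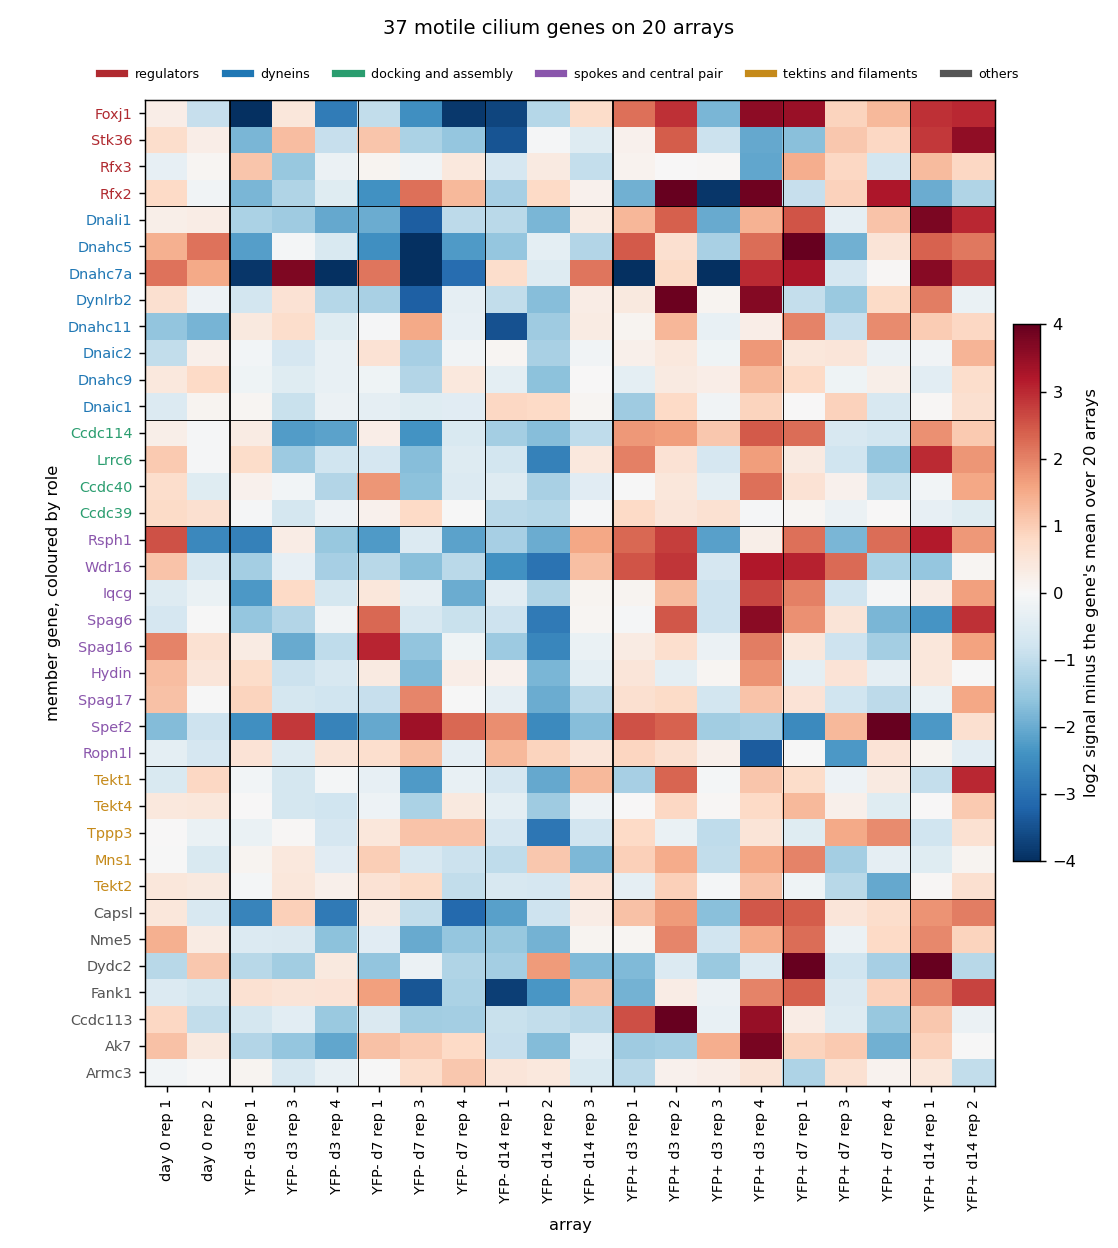
Log2 signal of the 37 genes (rows, coloured by role) on the 20 arrays (columns), each minus the gene's mean over the arrays, with the colour scale ending at -4 and 4. The YFP-positive columns are mostly red for Foxj1, Dnali1, Dnahc5 and Capsl, except the column of YFP-positive day 3 replicate 3, and the rows of Armc3 and Tekt2 show little contrast.

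Neither RFX factor showed the pattern of Foxj1. Rfx2 stood at -4.94 and -5.88 at day 0, and in YFP-negative cells at -7.56, -6.95 and -6.21 at day 3, -8.16, -3.53 and -4.44 at day 7 and -7.07, -4.93 and -5.56 at day 14. In YFP-positive cells it was -7.65, -1.70, -9.63 and -1.83 at day 3, -6.65, -4.80 and -2.50 at day 7 and -7.70 and -6.93 at day 14. The YFP-positive arrays of Rfx2 thus spread across and beyond the YFP-negative range, and the difference of 0.32 ± 1.07 turned sign when any of 4 single arrays was left out, the lowest value being -0.14 without YFP-negative day 7 replicate 1. Rfx3 was -2.49 and -2.09 at day 0. In YFP-negative cells Rfx3 was -1.07, -3.67 and -2.40 at day 3, -2.07, -2.29 and -1.73 at day 7 and -2.82, -1.82 and -3.13 at day 14. In YFP-positive cells Rfx3 was -2.01, -2.14, -2.13 and -4.24, then -0.71, -1.32 and -2.90, then -0.91 and -1.35 on the same days. The fractions overlapped, and the difference of 0.53 ± 0.42 was -0.33 with the mean of all probes and -0.42 with slide as a fixed block. Stk36, a kinase needed to build the central pair, differed by 1.88 ± 0.71 and most at day 14, where both YFP-positive arrays (-1.02 and -0.30) lay above all YFP-negative arrays. These are values of its used probe, and its other probes differed by 0.11 and 0.91 over the mean of days.

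All 8 dynein genes had a difference above 0, from 0.23 for the outer arm intermediate chain Dnaic1 to 3.28 for Dnali1, with a median of 1.40. Dnali1 was -2.42 and -2.36 at day 0. In YFP-negative cells it was -3.93, -4.08 and -4.69 at day 3, -4.65, -5.95 and -3.70 at day 7 and -3.72, -4.47 and -2.33 at day 14. In YFP-positive cells it was -1.31, -0.26, -4.67 and -1.24 at day 3, -0.14, -3.00 and -1.49 at day 7 and 1.12 and 0.36 at day 14. The fractions did not overlap at days 7 and 14, and the day 0 arrays lay between the group means of the fractions. Its probe lies at chr4:124733853-124736275 (mm9, minus strand), across a span longer than the probe itself.

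Dnahc5, mutated in primary ciliary dyskinesia, gave another pattern because day 0 was high. It stood at -2.10 and -1.37 at day 0, and in YFP-negative cells at -5.74, -3.62 and -4.15 at day 3, -5.99, -7.67 and -5.80 at day 7 and -5.08, -3.93 and -4.71 at day 14. In YFP-positive cells Dnahc5 was -1.08, -2.91, -4.84 and -1.30 at day 3, 0.68, -5.47 and -3.03 at day 7 and -1.18 and -1.41 at day 14. YFP-negative cells lay 3.45 ± 1.18 below day 0, while YFP-positive cells differed from it by -0.41 ± 1.19. The difference between the fractions was 1.44 with the mean of its probes and 1.98 with slide as a fixed block, in place of 3.04. The used probe lies at chr15:28401496-28401555 (mm9, plus strand).

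Of the other dyneins, the heavy chain Dnahc7a differed by 1.76 ± 1.36, with 7 of 9 YFP-positive and 5 of 9 YFP-negative arrays well above background. Dynlrb2, a light chain, differed by 1.74 ± 0.65. The outer arm heavy chains Dnahc11 and Dnahc9 differed by 1.07 ± 0.52 and 0.70 ± 0.32, and the intermediate chain Dnaic2 by 0.83 ± 0.36. Dnahc11 had its lowest levels at day 0 (-2.59 and -2.89) apart from 1 YFP-negative array at day 14 (-4.49), so that its order of groups was unlike that of Dnahc5.

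Docking and assembly genes had a median of 1.27, and Ccdc114, of the outer arm docking complex, led them with 2.35 ± 0.50. Its levels were -6.34 and -6.62 at day 0, and -6.26, -8.81 and -8.72 at day 3, -6.32, -8.99 and -7.19 at day 7 and -7.94, -8.28 and -7.59 at day 14 in YFP-negative cells. In YFP-positive cells Ccdc114 was -4.86, -4.91, -5.52 and -4.14 at day 3, -4.36, -7.23 and -7.33 at day 7 and -4.77 and -5.53 at day 14. The fractions did not overlap at days 3 and 14. These are dim signals: 4 of the 9 YFP-negative and 8 of the 9 YFP-positive arrays were well above background, and the difference was 0.54 with normexp and 0.37 with slide as a fixed block. The assembly factor Lrrc6 differed by 1.70 ± 0.51, and Ccdc40 and Ccdc39, which space the inner arms along the doublet, by 0.84 ± 0.49 and 0.25 ± 0.21.

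Spoke and central pair genes had a median of 1.02 with 8 of 9 higher in YFP-positive cells. The radial spoke head gene Rsph1 was 0.83 and -4.31 at day 0, so the 2 day 0 arrays differed more than the fractions did. In YFP-negative cells it was -4.42, -1.44 and -3.25 at day 3, -3.99, -2.27 and -3.86 at day 7 and -3.06, -3.70 and -0.17 at day 14. In YFP-positive cells Rsph1 was 0.57, 1.05, -3.90 and -1.48 at day 3, 0.48, -3.54 and 0.50 at day 7 and 1.46 and -0.0047 at day 14. The difference was 2.55 ± 0.91, and 6 of the 9 YFP-positive arrays lay above every YFP-negative array.

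Wdr16, now named Cfap52, an axonemal WD repeat protein, was -4.87 and -6.65 at day 0, and -7.39, -6.36 and -7.34, then -7.12, -7.68 and -7.10, then -8.45, -8.97 and -4.81 at days 3, 7 and 14 in YFP-negative cells. In YFP-positive cells Wdr16 was -3.49, -3.15, -6.70 and -2.82 at day 3, -2.95, -3.75 and -7.28 at day 7 and -7.57 and -5.96 at day 14. It was thus high on 5 YFP-positive arrays of days 3 and 7 and on none of day 14, and the difference was 2.99 ± 1.16, 2.64 ± 1.24 and 0.65 ± 1.39 by day. Over the mean of days it was 2.09 ± 0.73, or 0.80 with normexp. Iqcg, linked to the nexin-dynein regulatory complex, differed by 1.35 ± 0.58. The central apparatus genes Spag6 (1.21 ± 0.84), Spag16 (1.02 ± 0.61), Hydin (0.65 ± 0.41), Spag17 (0.56 ± 0.47) and Spef2 (0.36 ± 1.17) followed, and of these Spag6, Spag16 and Spag17 turned sign with slide as a fixed block.

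Tektins and filament proteins differed least, with a median of 0.57 and 4 of 5 higher. Tekt1 differed by 1.19 ± 0.63, Tekt4 by 0.93 ± 0.32, the tubulin-binding protein Tppp3 by 0.57 ± 0.41 and Mns1, a filament-like axonemal protein, by 0.46 ± 0.53. Another Tekt1 probe, well above background on 17 arrays, differed by 3.22.

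Among the remaining 7 genes, with a median of 1.79, Capsl and Nme5 were closest to Foxj1. Capsl, a calcyphosine-like protein, was 0.03 and -1.05 at day 0, and -3.06, 0.56 and -3.25 at day 3, -0.05, -1.38 and -3.51 at day 7 and -2.57, -1.25 and -0.10 at day 14 in YFP-negative cells. In YFP-positive cells it was 0.76, 1.31, -2.09 and 2.09 at day 3, 2.02, 0.06 and 0.29 at day 7 and 1.40 and 1.64 at day 14. The difference was 2.57 ± 0.70, and the high YFP-negative arrays of Foxj1 (replicate 3 of days 3 and 14, replicate 1 of day 7) were the high ones of Capsl as well.

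Nme5, a nucleoside diphosphate kinase family member of the axoneme, was -0.20 and -1.32 at day 0, and -2.19, -2.22 and -3.28 at day 3, -2.08, -3.65 and -3.17 at day 7 and -3.15, -3.51 and -1.52 at day 14 in YFP-negative cells. In YFP-positive cells Nme5 was -1.55, 0.31, -2.41 and -0.16 at day 3, 0.60, -1.88 and -0.83 at day 7 and 0.30 and -0.73 at day 14. The difference was 2.13 ± 0.47, or 1.23 with slide as a fixed block, and YFP-positive cells stood near day 0 (0.14 ± 0.77).

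Dydc2, a DPY30 domain protein, was near background almost everywhere. It was -9.72 and -7.54 at day 0, and -9.74, -9.99 and -8.22, then -10.21, -8.84 and -9.82, then -9.99, -6.91 and -10.37 at days 3, 7 and 14 in YFP-negative cells. In YFP-positive cells Dydc2 was -10.37, -9.16, -10.11 and -9.15 at day 3, -1.69, -9.41 and -9.96 at day 7 and -1.34 and -9.72 at day 14. Its difference of 1.93 ± 1.18 therefore rests on 2 arrays, and it was 0.53 without YFP-positive day 14 replicate 1 and -0.32 with slide as a fixed block. At day 7 no YFP-negative array was well above background, and each was given its lowest spot signal that was well above background. The YFP-positive mean lay 1.66-fold above the mean of these signals. Only 1 of the 3 YFP-positive arrays behind that value was itself well above background (-1.69), so the value rests on that array and is no lower bound. At day 3 no YFP-positive array was well above background. Fank1 (1.79 ± 0.77), Ccdc113 (1.77 ± 0.52) and the adenylate kinase Ak7 (0.91 ± 0.65) complete the group with Armc3. Another Fank1 probe, well above background on 20 arrays, differed by 0.15.

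**Figure D3:**
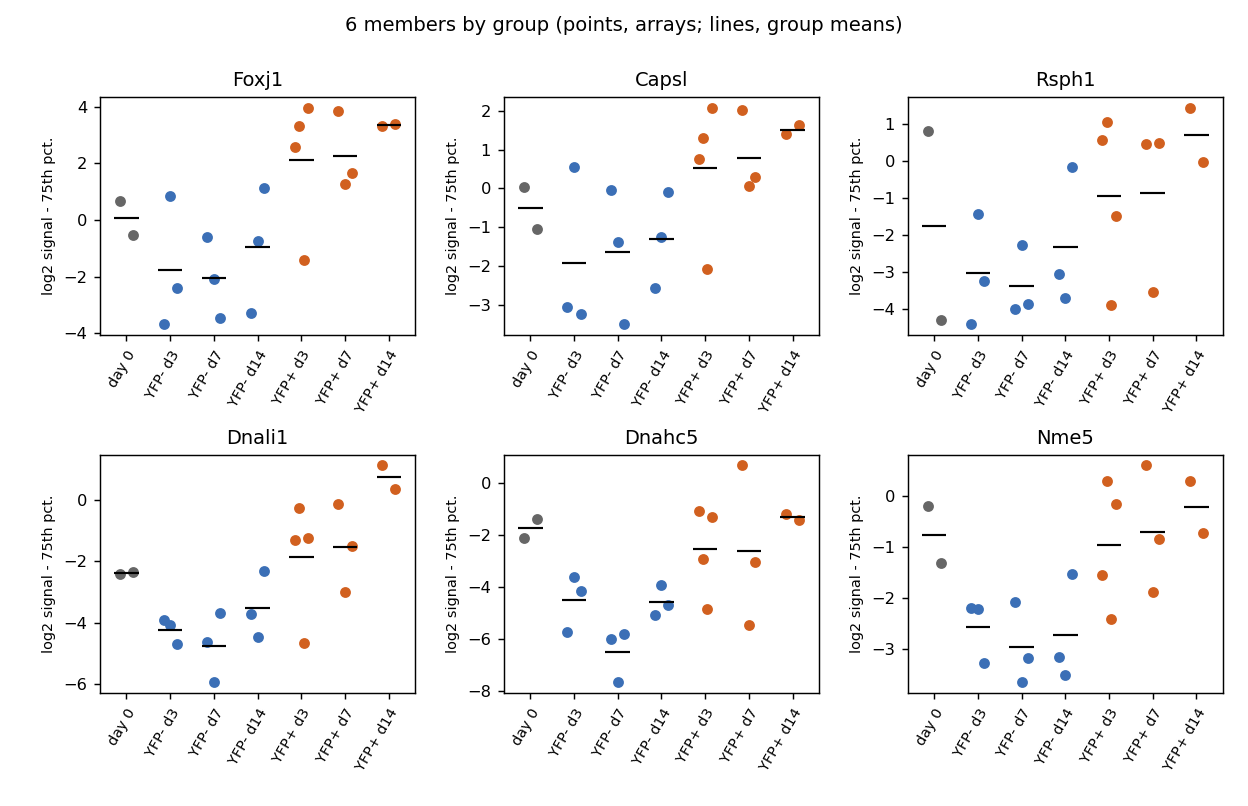
Log2 signal minus the array's 75th percentile (vertical axes) of Foxj1, Capsl, Rsph1, Dnali1, Dnahc5 and Nme5 in the 7 groups, with a point for each array and a line at the group mean. In all 6 panels the YFP-positive means lie above the YFP-negative means of the same day, and each YFP-positive day 3 group has 1 low point (replicate 3).

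Within days, 3 of the 37 genes had YFP-positive arrays all above YFP-negative arrays at day 3 (Ccdc114, Ccdc113 and Ccdc39), beside 3.74% of all genes, and none all below, beside 1.68%. At day 7 there were 6 (Foxj1, Dnali1, Dnahc5, Capsl, Nme5 and Tekt1), beside 4.27%, and none the other way, beside 5.06%. At day 14, with 2 arrays against 3, there were 20, beside 20.4% of all genes, and Ropn1l alone lay the other way, beside 13.7%. The choice of genes used this contrast, and the counts are given as description.

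Against day 0, the list moved in both fractions. The median was 0.49 for YFP-positive cells, with 25 of 37 higher (all genes -0.27, with 37.6% higher). It was -0.91 for YFP-negative cells, with 30 of 37 lower and 7 higher (all genes -0.41, with 32.1% higher). The mean level at day 0 lay between the fractions for 19 genes, Foxj1, Dnali1, Capsl and Nme5 among them, above both for 11 (Dnahc5, Hydin and Spag17 among them) and below both for 6 (Dnahc11 and Ropn1l among them). Foxj1 was 2.52 ± 1.40 above day 0 in YFP-positive cells and 1.65 ± 1.39 below it in YFP-negative cells. Neither median was stable: the first was -0.0029 without day 0 replicate 2, 0.31 without YFP-positive day 14 replicate 2 and -0.32 with slide as a fixed block. The second was -0.59 without day 0 replicate 1, -0.09 with quantile normalization and -0.17 with normexp.

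The authors' deposited table gives signed fold changes of each sorted group against day 0, with false discovery rates. Over the used probes of the 37 genes it listed 30, 26 and 31 as higher than day 0 in YFP-positive cells at days 3, 7 and 14, and 13, 16 and 13 in YFP-negative cells. The shares of all genes that were higher in that table are not given here, so these counts are description only. In the authors' deposited table Foxj1 was 3.66-, 4.02- and 8.84-fold higher in YFP-positive cells, with rates of 25.4, 4.36 and 0.61%. At day 14 in YFP-positive cells the authors' deposited table gave 9 of the 37 genes a rate under 5%, all of them higher, beside 9.13% of the 26448 genes it covers that were higher at that rate and 6.7% that were lower. In YFP-positive cells 2 of the 37 genes had such a rate at day 3, with 2 higher, and 4 at day 7, with 3 higher. In YFP-negative cells 1, 2 and 1 had it at days 3, 7 and 14. The shares of all genes for these groups are not given here, so no change between days can be read from these counts. How that table was made is not given in the sources used here.

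Time within a fraction was tested, since the choice of genes did not rest on it. No gene of the 37 passed an adjusted p of 0.05 (limma, Benjamini-Hochberg over 26650 genes) from day 3 to day 7 or from day 3 to day 14 in either fraction, or in the difference of the day 3 to day 14 change between the fractions. Over all genes 7 fell from day 3 to day 14 in YFP-positive cells (0.0263%), none rose, and none passed in the other 4 comparisons (0.0% in each direction). At an unadjusted p under 0.05, 4 of the 37 passed from day 3 to day 14 in YFP-positive cells (all genes 6.35%) and 3 from day 3 to day 7 (4.52%). In YFP-negative cells 0 passed from day 3 to day 14 (all genes 3.69%) and 1 from day 3 to day 7 (3.68%), and 2 passed in the difference (2.86%). A p that misses the threshold does not show that levels stayed the same.

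The estimates over time in YFP-positive cells differed between genes. Dnali1 was 2.61 ± 1.04 higher at day 14 than at day 3 (limma adjusted p = 0.662). The used probe of Stk36 was 3.28 ± 1.27 higher (limma adjusted p = 0.660). Ccdc113 was 3.07 ± 0.83 lower at day 7 than at day 3 (limma adjusted p = 0.807), and Foxj1 differed by 1.25 ± 1.54 between days 3 and 14 (limma adjusted p = 0.989). By group mean, 21 of the 37 genes were highest at day 14 among the YFP-positive groups, 12 at day 3 and 4 at day 7. The median change from day 3 to day 14 was 0.17 in YFP-positive cells (all genes -0.05) and -0.17 in YFP-negative cells (all genes -0.06).

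The genes did not move as a single block. Over the 20 arrays, Pearson's r with Foxj1 was 0.97 for Capsl, 0.84 for Nme5, 0.83 for Dnali1, 0.82 for Iqcg, 0.78 for Rsph1 and 0.76 for Dnahc5. It was 0.20 for Hydin, 0.12 for Dnaic1, -0.02 for Rfx3, -0.40 for Ropn1l and -0.46 for Armc3. Capsl kept 0.996 over the 9 YFP-positive and 0.92 over the 9 YFP-negative arrays, whereas Dnali1 had 0.88 and 0.25. Genes outside the list came closer to Foxj1 over the 20 arrays than Capsl (0.968) did. Among them were Cldn7 (0.982), Sftpd (0.981), Epcam (0.973) and Cdh1 (0.971). The points share arrays, slides and the fractions that chose the genes, so these values describe the arrays only.

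Outside the 37 genes, those most like the list were not genes of the axoneme. The 10 genes with the highest Pearson's r over 20 arrays with the mean of the 35 members called above background on 10 arrays or more were 9130017N09Rik (now Misp, 0.97), Ehf (0.94), Fgfr4 (0.93), Cdh6, Fut2, 2310057J16Rik (now Camsap3), the unmatched AV065344 and Myh14 (0.92 each), Cldn9 and Cftr (0.91 each). Ehf, an epithelial transcription factor, and Cftr, the chloride channel of the bile duct, are on the list of biliary markers. The 37 genes were chosen from the difference between the fractions on these arrays, so this ranking is given as description.

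That list of 17 biliary markers moved with the 37 genes across arrays. Its mean, centred per gene, had a Pearson's r of 0.90 with the mean of the 37 over 20 arrays, 0.90 over the 9 YFP-positive and 0.68 over the 9 YFP-negative arrays. The value over 20 arrays is not independent of the difference between fractions that chose the 37 genes. Such values were not particular to biliary markers. For the intraflagellar transport genes described below r was 0.85, 0.90 and 0.46 over the same sets of arrays. For the further axonemal genes described below it was 0.81, 0.78 and 0.68. Over 20 arrays sperm genes had 0.70, genes of multiciliated differentiation 0.54 and stellate markers -0.70. All 17 markers were higher in YFP-positive cells (median 3.03), and Cldn7 (3.54 ± 0.73), Ehf (2.61 ± 0.52) and Cftr (2.48 ± 0.50) passed with limma adjusted p = 0.0392, 0.0366 and 0.0366. The markers were chosen with earlier results of these data known, so these passes are not independent of the choice. Over all genes 57 rose (0.214%) and 114 fell (0.428%), and 21.4% had an unadjusted p under 0.05 in this limma fit. The first marker, Krt19, differed by 3.46 ± 0.79 (limma adjusted p = 0.0554). The list's mean ran from -1.32 to 2.79 in YFP-positive cells, from -2.98 to 0.73 in YFP-negative cells and from -0.84 to 0.02 at day 0. YFP-positive day 3 replicate 3 had the lowest value of its fraction (-1.32), and YFP-negative day 14 replicate 3 the highest of its own (0.73). The part of biliary cell content in the difference of the motile cilium genes was not tested.

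**Figure D4:**
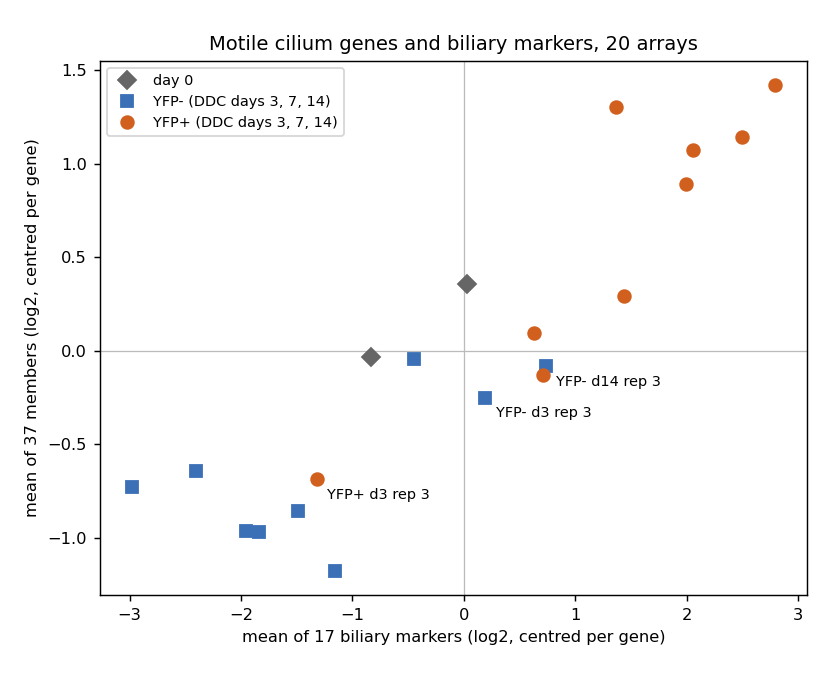
Mean of the 37 motile cilium genes (vertical axis) against the mean of 17 biliary markers (horizontal axis) on each of the 20 arrays, both in log2 units centred per gene, with symbols for the 3 kinds of cells. Arrays low in biliary markers were low in the motile cilium genes, and the low YFP-positive array (-1.32, -0.69) lies among the YFP-negative arrays.

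Other cell types gave smaller or opposite values. Stellate cell markers were lower in YFP-positive cells for 11 of 12 (median -3.12), and 5 fell, among them Lrat, which esterifies retinol (-2.59 ± 0.42, limma adjusted p = 0.0235), and Col1a1 (-4.95 ± 0.99, limma adjusted p = 0.0362). Their mean ran from -4.18 to 0.70 in YFP-positive and from 0.59 to 2.40 in YFP-negative cells. Markers of airway and oviduct secretory cells, neighbours of multiciliated cells in those organs, were higher for 7 of 10 (median 0.61), none passing and 2 at an unadjusted p under 0.05 (all genes 21.4%). Their differences ran from -1.17 to 2.94, and the lowest limma adjusted p was 0.0522. Scgb1a1 of airway club cells differed by 0.69 ± 0.67 (limma adjusted p = 0.576). Sftpd, named above for its Pearson's r with Foxj1, is on this list of markers as well. Their mean ran from -0.40 to 1.52 in YFP-positive and from -1.41 to 0.71 in YFP-negative cells.

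Mesothelial markers were lower for 7 of 10 (median -0.34) and 1 fell, Rspo1 (-3.05 ± 0.60, limma adjusted p = 0.0349), and Msln differed by 0.62 ± 0.68 (limma adjusted p = 0.622). Their mean ran from -1.65 to 0.20 in YFP-positive and from -1.18 to 1.70 in YFP-negative cells. Hepatocyte, endothelial and macrophage markers had medians of -0.59, -0.77 and -0.60, with none passing. Alb, Pecam1 and Emr1, their first members, differed by 0.05 ± 0.33, -1.19 ± 0.55 and -0.86 ± 1.24 (limma adjusted p = 0.951, 0.225 and 0.721). Emr1, a surface receptor of macrophages, ran up to 4.17 in YFP-positive and 4.34 in YFP-negative cells although both were sorted as CD45-negative.

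Other genes of the cilium, from lists that do not hold the 37, were tested between the fractions. The 37 were chosen with this difference in view, so a smaller median in these lists than in the 37 is no result. Of 47 further axonemal genes measured (of 56 listed), 38 were higher in YFP-positive cells with a median of 0.68. None passed the threshold, the lowest limma adjusted p being 0.0604, and 15 had an unadjusted p under 0.05, beside 21.4% of all genes. Without YFP-positive day 3 replicate 3, 6 passed, among them Gas8 and Zmynd10, where 754 of all genes rose (2.83%). With quantile normalization 4 passed, these genes again among them, where 817 of all genes rose (3.07%). Without YFP-positive day 7 replicate 3 only Lrriq1 passed (all genes 0.304%). The first of the list, Dnahc1, a dynein heavy chain, differed by -0.08 ± 0.36 (limma adjusted p = 0.917). The mean of the 47, centred per gene, was 0.57 and 0.48 at day 0, -0.51 to 0.94 in YFP-positive cells and -0.85 to -0.03 in YFP-negative cells. Against day 0, 28 of the 47 were lower in YFP-positive cells (median -0.27) and 41 of the 47 in YFP-negative cells (median -0.86).

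Genes that direct multiciliated cell differentiation and centriole multiplication differed little between the fractions. Of 16 measured (of 18), 10 were higher in YFP-positive cells with a median of 0.16, none passed, and 4 had an unadjusted p under 0.05, a share near the 21.4% of all genes. Ccno, needed for centriole multiplication, differed by 0.46 ± 0.75 (limma adjusted p = 0.757), and the lowest limma adjusted p was 0.124. Mcidas and Gmnc, which start the programme, were not matched to a measured gene and are not analysed here.

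Genes shared with primary cilia lay between these lists. Intraflagellar transport genes, which carry cargo along every cilium, were higher in YFP-positive cells for 20 of 25 with a median of 0.30, 0 passing and 9 at an unadjusted p under 0.05 (all genes 21.4%), and the lowest limma adjusted p was 0.0842. Ift20 differed by -0.17 ± 0.19 (limma adjusted p = 0.631). BBSome and transition zone genes, the gate of the cilium, were higher for 21 of 26 with a median of 0.42, 0 passing and 6 at an unadjusted p under 0.05, a share near that of all genes, and the lowest limma adjusted p was 0.0573. Bbs1 differed by 1.0 ± 0.66 (limma adjusted p = 0.395). Without YFP-positive day 3 replicate 3, 2 intraflagellar transport genes passed (Ift57 and Ift81), and Rpgrip1l of the transition zone passed as well, where 2.83% of all genes rose.

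Sperm genes, which share the flagellum but include nuclear and surface proteins of the male germ line, were higher in YFP-positive cells for 20 of 23. Their median of 0.85 lay close to that of the 37 genes. With all 20 arrays none passed, 11 had an unadjusted p under 0.05 (all genes 21.4%), and the lowest limma adjusted p was 0.0899. The number passing did not stay at 0 when each array was left out in turn. Prm1, a protamine that packs sperm DNA, differed by 0.85 ± 0.27 (limma adjusted p = 0.106), and Akap3 by 1.06 ± 0.41 (limma adjusted p = 0.157). Of the 23 genes, 7 and 10 lay in the 2 dimmest of the 5 bins of signal level, where the medians over all genes were 0.28 and 0.37, as did 6 and 12 of the 37 motile cilium genes. The part of low signal in these differences was not tested.

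**Figure D5:**
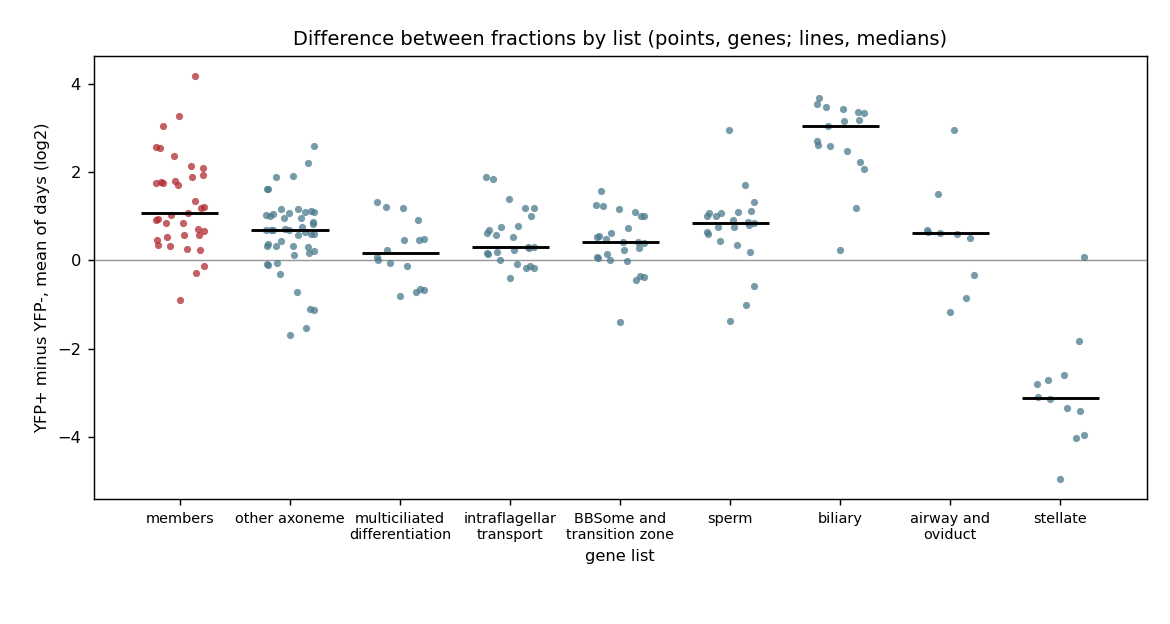
Log2 difference between YFP-positive and YFP-negative cells over the mean of days (vertical axis) for each gene (points) of 9 lists, with lines at the medians. The 37 genes have a median of 1.07, the biliary markers 3.03 and the stellate markers -3.12, while the other ciliary, sperm and airway lists have medians from 0.16 to 0.85. The 37 genes were chosen with this difference in view, so their median cannot be ranked against those of the other lists.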

How the data were processed

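Scanner files of 20 of the 26 samples were analysed. The other 6 samples are not analysed here. RNA was amplified with the WT-Ovation Pico system and labelled with Cy3, per the labels' protocols. The deposited intensity used was the scanner software's processed signal, with background subtracted and spatial trend removed on each array alone, per the file headers. These name a later release of Feature Extraction than the 9.53 of the submitters' processing notes. The authors' deposited table holds a score, the signed fold change (negative for falls), with its false discovery rate as a percentage, and detection calls, which were not used. Its method is not given in the sources used here.

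Control and outlier spots were dropped, spots of a probe averaged, and the log2 intensity minus the 75th percentile of each array taken. Probes had to be well above background in 2 or more of the 20 arrays (39595 of 41174 passed), and the brightest probe stood for a gene (26650). The 7 groups were fitted with limma 3.58.1 in R 4.3.3 (2.32 prior and 13 residual degrees of freedom), with the Benjamini-Hochberg adjustment. The fit was tested on simulated data. The number of arrays limits the precision.

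The 37 genes, the gene lists and the tests were chosen with earlier results of these data known. Genes named with all array values were Foxj1, Rfx2, Rfx3 and the 8 others with the largest difference between fractions. Of each other list the first measured member, up to 4 past the threshold, and a few chosen after their values were seen (Prm1 and those passing only under an alternative) were named. Names were updated by accession or symbol to GRCm38.p6 (6 of the 37 renamed), and promoter windows come from RefSeq of that build. Slides were read from the barcodes of the files. Replicate numbers were not used to pair the samples in the main setting. Same-numbered arrays of the fractions deviated together from their group means with correlations of -0.24 to 0.39. With so few arrays in a group, these values cannot show whether the numbers pair the fractions. Alternatives were normexp (offset 50), quantile normalization, other filters on dim probes, the mean of probes, slide as a fixed or random block, a replicate block and leaving out each array. The probe chosen for a gene stayed the same unless the filter or the use of probes was what changed. Some genes that passed under an alternative are not reported here by name. The non-overlap without YFP-positive day 3 replicate 3 was added after seeing the data.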

Additional observations from a re-analysis of the deposited data

Results flagged for a closer look

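Among the 37 genes, 2 had a single array far from the others of its group, by the gap to the nearest array over the range of the group. Both were the lowest of the 4 YFP-positive arrays at day 3, and both were replicate 4. Rfx3 was -4.24 on that array, with a gap of 0.94 of the range, and Ropn1l was -5.68, with a gap of 0.85. Chance flags about 1 in 20 groups, and 37 genes were examined in this group, the only one with at least 4 arrays. That array had the highest mean of the 37 genes (1.42).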

How the results depend on the processing

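The median difference between fractions over the mean of days moved from 1.07 to 0.36 with slide as a fixed block, and that of day 14 to 0.72. With normexp the day 3 median was -0.0087 and that of YFP-negative cells against day 0 -0.17, which was -0.091 with quantile normalization. YFP-positive cells against day 0 gave -0.32 with slide as a fixed block. The other 302 settings of these medians and of the counts over time moved by less than 1 SD between replicates or left the count unchanged, and the cause of the moves was not tested. Leaving out each array gave 0.83 to 1.38 for the mean of days, 0.78 to 1.30, 0.31 to 0.84 and 1.15 to 2.0 by day, and 0 genes passing in all 5 comparisons over time. Where this left 1 array in a group, that array was assumed to vary like those of the other groups. With the replicate block, which rests on a shared number only, the mean of days was 1.05 and 0 genes passed over time. At day 14 only 2 YFP-positive arrays, and at day 0 only 2 arrays, limit what can be detected. Dim probes (Dydc2, Spef2, Ccdc114, Spag16 and Dnahc7a) were at background on many arrays.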
